A study of Mus musculus with 36 samples.

Results

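The tissue inhibitors of metalloproteinases Timp1, Timp2, Timp3 and Timp4 and the matrix metalloproteinases Mmp2, Mmp3, Mmp8, Mmp9 and Mmp14 were followed in single cells of the injured mouse left ventricle. These 9 genes were taken by symbol from count tables that list 20720 nuclear genes, and all 9 were present. Cells were from 8-week-old male C57BL/6 mice and were sorted 1 per well into plates of the SORT-seq protocol, in which each captured transcript is marked with a random tag, the unique molecular identifier (UMI). Of the sham-operated hearts, 4 plates were taken at day 1 and 8 at day 14. Ischemia-reperfusion (IR), in which the left anterior descending coronary artery was tied for 1 hour and then released, gave 9 plates at day 1, 7 at day 3 and 3 at day 14. Myocardial infarction (MI), in which the same artery stayed tied, gave 5 plates at day 3 and has no sham group of its own here. Per the study's methods, the tissue was infarct with border zone, or the matching region of sham hearts. The methods give 3 mice per condition for hearts 3 days after sham or MI surgery, so some of the 5 MI plates share a mouse. They do not name the other groups used here, whose plates may also share a mouse. The labels do not tie plates to mice, and p-values measure the spread between plates, which may be smaller than that between mice.

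Matrix metalloproteinases are zinc enzymes that cut collagens and other proteins of the extracellular matrix, and most are secreted as inactive proforms. Mmp2 and Mmp9 encode the gelatinases, Mmp3 stromelysin-1, Mmp8 the collagenase stored in neutrophil granules, and Mmp14 a membrane-anchored enzyme that activates pro-MMP2 together with TIMP2. The 4 TIMP proteins bind the active site of these enzymes, and the balance of both is known for shaping the breakdown of the old matrix and the forming of the scar after infarction. UMI counts measure RNA and hold no information on enzyme activity.

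In RefSeq's annotation of GRCm38, Timp1 lies on chrX:20870166-20874737, within the neuronal gene Syn1 and on the opposite strand. Timp3 (chr10:86300412-86349505) and Timp4 (chr6:115244444-115252205) lie within Syn3 and Syn2. Whether the counting used strand is not given in the sources used here. In all cells the tables held 144 UMIs of Syn1, 32 of Syn3 and 63 of Syn2, against 37136 of Timp1, 8002 of Timp3 and 796 of Timp4. Mmp3 (chr9:7445822-7455975) and Mmp8 (chr9:7558429-7568486) lie on the same chromosome and strand. Timp2 lies on chr11:118301061-118355411, Mmp2 on chr8:92827290-92853421, Mmp9 on chr2:164940326-164955850 and Mmp14 on chr14:54431598-54442456.

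RefSeq promoter entries matched 7 of the 9 genes, all but Mmp2 and Mmp9. Shown are the 150 bases before the annotated start, 5′ to 3′ on the gene's strand in GRCm38.p6, of the 4 genes with an entry that were higher at IR day 1 than at day 1 sham over all cells. Capitals mark the motifs searched for, on both strands. One was the AP-1 motif TGANTCA, the site of the Fos and Jun factors. Another was the TATA box in its form TATAAA, which places the start of transcription in many genes. The last was the GC box GGGCGG, bound by factors of the Sp family.
Timp1, chrX:20870016-20870165, plus strand: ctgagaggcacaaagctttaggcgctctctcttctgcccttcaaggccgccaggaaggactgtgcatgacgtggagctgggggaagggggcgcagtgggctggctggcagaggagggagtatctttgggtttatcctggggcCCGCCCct
Mmp3, chr9:7445672-7445821, plus strand: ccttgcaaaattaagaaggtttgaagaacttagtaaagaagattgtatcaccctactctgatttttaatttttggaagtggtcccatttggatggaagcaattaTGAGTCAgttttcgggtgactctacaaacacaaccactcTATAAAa
Mmp8, chr9:7558279-7558428, plus strand: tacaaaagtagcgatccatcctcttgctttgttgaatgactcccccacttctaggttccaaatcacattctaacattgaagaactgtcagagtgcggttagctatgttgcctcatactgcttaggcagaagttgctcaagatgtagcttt
Mmp14, chr14:54431448-54431597, plus strand: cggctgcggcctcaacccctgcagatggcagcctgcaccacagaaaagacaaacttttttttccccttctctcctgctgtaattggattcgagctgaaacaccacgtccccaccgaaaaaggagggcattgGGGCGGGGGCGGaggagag
Mmp3 held the AP-1 motif with its first base at -46 and the TATA box at -7 from the start. Timp1 held a reverse-strand GC box at -8, and Mmp14 held a pair of GC boxes at -19 and -13. None of the motifs was found in the Mmp8 window. Of the windows of this length before all 32851 annotated starts, 4.24% held the AP-1 motif, 7.57% the TATA box and 28.6% the GC box. A match describes letters only, and binding was not measured.

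A well with at least 1000 UMIs of nuclear genes was taken as a cell, which gave 3146 cells. Mean UMIs per cell ranged from 3470 to 7240 over the sham and IR groups and were 23882 in MI, so ligation type and depth cannot be told apart. Replicates 2 and 7 of day 14 sham held 1 plate deposited 2 times and were counted as 1 sample, which left 7 plates and 3101 cells. Levels of this plate are the mean of both copies, levels pooled over a group take replicate 7 alone. No well of the IR day 3 plate replicate 2 reached this minimum, which left 6 plates. Beside that plate, 38 wells were copied between plates, 19 of them with at least 1000 UMIs, among them 16 wells that replicate 2 of day 14 sham shared with replicate 6 of IR day 3. Cells were clustered without the 9 genes, and clusters were named from marker lists as cardiomyocyte-like, fibroblast-like, endothelial-like, macrophage-like and neutrophil-like, with 450 cells left unnamed. Cardiomyocyte-like cells made up 54.9% of cells at day 1 sham, and all 8 cardiomyocyte markers were present in every group. The cell make-up differed between groups, with 31 cardiomyocyte-like cells at IR day 1 and 19 in MI, and 106 neutrophil-like cells at IR day 1 against 1 at day 1 sham. In values summed over all cells of a plate, more cells of a type and more RNA per cell cannot be told apart.

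Each gene was carried by few classes of cells. Fibroblast-like cells held 29.0% of all UMIs, but 93.3% of the UMIs of Mmp3, 92.9% of Timp1 and 84.7% of Mmp2. Endothelial-like cells, at 12.4% of all UMIs, held 84.6% of Timp4. Macrophage-like cells, at 37.6% of all UMIs, held 82.0% of Mmp8, 59.0% of Mmp9 and 56.7% of Timp2. Neutrophil-like cells, at 1.32% of all UMIs, held 34.1% of Mmp9 and 8.71% of Mmp8. Timp3 was divided between fibroblast-like (47.4%) and endothelial-like cells (38.7%), and Mmp14 between fibroblast-like (55.7%), macrophage-like (27.1%) and endothelial-like cells (14.6%). These shares pool cells of all groups and give most weight to the deep MI plates. The clusters were built from the same cells, so the shares are descriptions with no test. When the 9 genes were allowed in the clustering, 98.5% of cells kept the same class. The cells that moved weighed on the endothelial-like values, where Timp1 went from 485 to 259 UMIs and Mmp14 from 1305 to 979, while mural-like cells went from 0.491% to 2.88% of all UMIs.

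**Figure D1:**
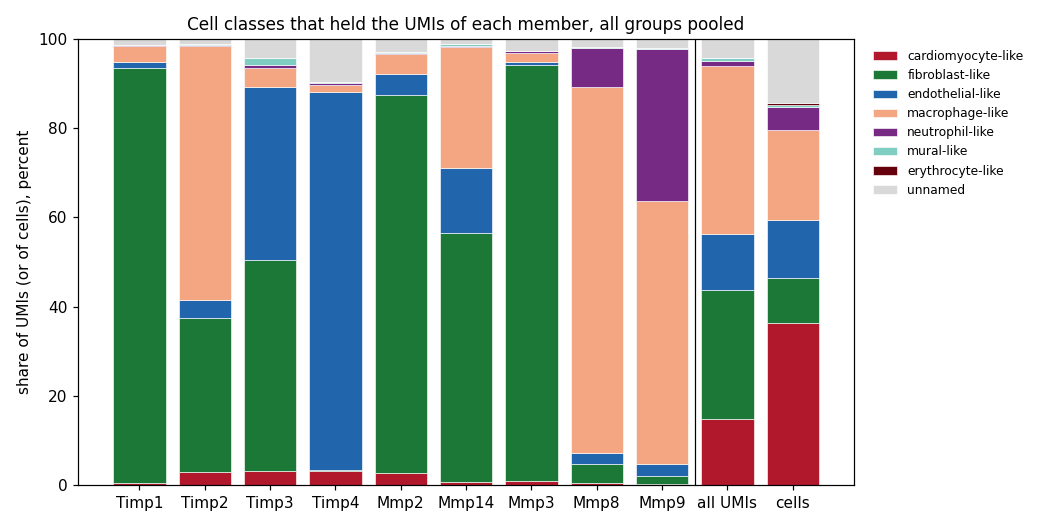
Share (percent) of each gene's UMIs, of all UMIs and of all cells that lay in each class of cells, over the 3101 cells of all groups. Timp1, Mmp2 and Mmp3 bars are mostly fibroblast-like, the Timp4 bar is mostly endothelial-like, and the Mmp8 and Mmp9 bars are mostly macrophage-like and neutrophil-like.

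The source of some genes differed between groups. Of the Mmp9 UMIs, 83.7% lay in neutrophil-like cells at IR day 1 and 77.7% in macrophage-like cells in MI. Of the Timp3 UMIs, 74.4% lay in endothelial-like cells at day 1 sham and 70.3% in fibroblast-like cells in MI. Of the Timp2 UMIs at IR day 3, 75.2% lay in macrophage-like cells. Macrophage-like cells held 54.5% of the Mmp14 UMIs at IR day 3, close to their 53.2% of all UMIs in that group. Fibroblast-like cells held 32.2% of these Mmp14 UMIs and 12.1% of all UMIs. At day 1 sham, 62.0% of the 92 Timp1 UMIs lay in endothelial-like cells, of which 51 of 57 came from replicate 4.

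Timp1, a secreted inhibitor with a broad range of targets, was low in sham and high at IR day 1 and in MI. Its level in UMIs per 1000000 nuclear UMIs (CPM), summed over all cells of a plate, was 6.64, 16.6, 36.5 and 162 on the 4 plates of day 1 sham. On the 9 plates of IR day 1 it ranged from 409 to 2872 with a median of 1556, above every sham plate. At IR day 3 the 6 plates held 22.7, 124, 158, 208, 266 and 551 CPM, and at IR day 14 the 3 plates held 2.35, 19.8 and 98.4 CPM. The MI plates held 1217, 1623, 1780, 1918 and 2484 CPM. Levels at IR day 14 and in both sham groups overlapped, as did those at IR day 1 and in MI. At day 14 sham, 5 of 7 plates held 0 UMIs of Timp1, and the highest, 79.4 CPM, was the plate deposited 2 times. By edgeR's quasi-likelihood test over all genes with Benjamini-Hochberg adjustment, Timp1 was higher at IR day 1 than at day 1 sham by 4.43 ± 0.88 on the log2 scale (SE, adjusted p = 0.000149). It was higher in MI than at IR day 3 by 2.88 ± 0.71 (adjusted p = 0.00374). Against both sham groups the log2 difference was 3.02 ± 0.68 for IR day 3 (adjusted p = 0.000994) and 5.89 ± 0.72 for MI (adjusted p = 1.65e-08). Against day 1 sham alone, the IR day 3 difference was 1.94 and missed the threshold (adjusted p = 0.0858).

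**Figure D2:**
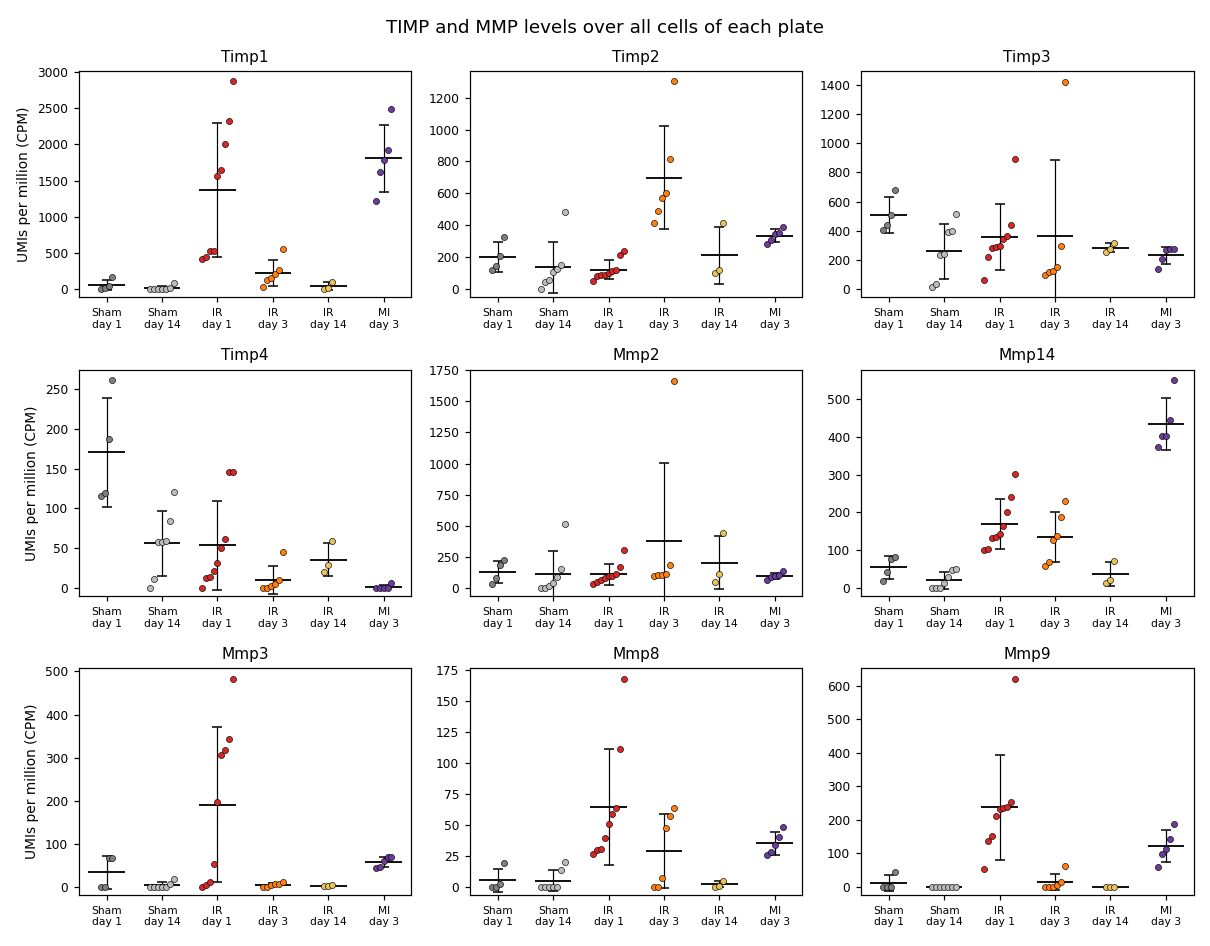
Level (CPM) of the 9 genes summed over all cells of a plate. Each point is a plate, the line is the group mean, and bars are the SD, which the axis stops at 0. Timp1 points of IR day 1 and MI lie above all sham points, while the MI points of Timp4 lie near 0.

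Within fibroblast-like cells, where plates with at least 5 such cells were used, Timp1 was at 0, 72.7 and 193 CPM on the 3 plates of day 1 sham. The IR day 1 plates held 1257, 5198, 5297, 5836 and 11031 CPM, and the MI plates 3516, 3740, 4133, 4231 and 4721 CPM. The IR day 3 plates lay lower, at 305, 1568, 1790 and 1807 CPM, and the 2 plates of IR day 14 held 419 and 540 CPM. All injured plates were above the highest of the 4 sham plates, and IR day 1 and MI overlapped. The log2 difference from day 1 sham at IR day 1 was 5.78 ± 0.77 (edgeR, adjusted p = 3.88e-05). The differences from both sham groups were 4.11 ± 0.79 at IR day 3 (adjusted p = 0.0114) and 5.59 ± 0.84 in MI (adjusted p = 5.89e-05), where day 14 sham has 1 such plate. MI and IR day 3 did not differ past the threshold (adjusted p = 0.0577). After thinning each cell to 1000 UMIs, a Timp1 UMI was found in 4.35% of the 23 fibroblast-like cells of day 1 sham, 72.2% of 54 at IR day 1, 43.7% of 71 at IR day 3 and 90.9% of 132 in MI. Before thinning the shares were 13%, 90.7%, 63.4% and 99.2%. The same thinned share in endothelial-like cells was 4.67% of 107 at day 1 sham and 10.3% of 58 in MI, with median depths of 3127 and 16726 UMIs before thinning, against 3938 and 45196 in the fibroblast-like cells.

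Timp1 was also higher in cardiomyocyte-like cells at IR day 1, at IR day 3 and in MI. On the 4 plates of day 1 sham it held 0, 7.04, 14.4 and 26.4 CPM, and 0 UMIs were found in the 213 cells of day 14 sham, where 3 UMIs over the group would be 4.61 CPM. The 3 plates of IR day 1 with at least 5 such cells held 705, 847 and 1086 CPM, from 17, 32 and 20 UMIs. The IR day 1 difference from day 1 sham was 5.44 ± 0.54 (edgeR, adjusted p = 1.28e-12), with no overlap between plates. Pooled levels of 88.2 CPM at IR day 3 and 126 CPM in MI were at least 19.1-fold and 27.4-fold higher than at day 14 sham, counted against that floor. The 5 plates of IR day 3 ranged from 0 to 136 CPM with 1 plate at 0 UMIs, so they overlapped with sham, and the 2 plates of MI held 114 and 181 CPM, above all sham plates. Both passed the test against both sham groups (adjusted p = 1.51e-08 and 6.2e-06), while the fitted sizes rest on a group at 0 and are not given. The 3 plates of IR day 14 held 0, 4.39 and 21.4 CPM, within the range of day 1 sham, and did not pass against day 14 sham (edgeR, adjusted p = 0.672). The 8 fibroblast markers in these cells summed to 144 to 680 CPM on the plates of day 1 sham, 373 to 3095 at IR day 1, 610 to 3223 at IR day 3 and 633 to 1946 in MI. Between IR day 1 and IR day 3 their median went from 874 to 2221 CPM, while the median level of Timp1 went from 847 to 75.2 CPM. Timp1 UMIs per 1000 UMIs of those markers were 697 in cardiomyocyte-like and 312 in fibroblast-like cells at IR day 1, and 126 and 128 in MI. The markers Lum, Tcf21 and Dpt were at 0 in the cardiomyocyte-like cells of IR day 1 and MI, where all 8 markers summed to 99 and 231 UMIs. In so few UMIs a marker of low level can be at 0 by counting alone, and the other markers made up these sums. Cardiomyocyte markers in these cells summed to 49520 to 61565 CPM at day 1 sham and 27082 to 36765.5 at IR day 1. The part of RNA from other cells, fibroblasts among them, in these values was not tested beyond this.

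In macrophage-like cells Timp1 fell from IR day 1 to IR day 3 by 2.27 on the log2 scale (SE 0.72, edgeR, adjusted p = 0.0186). The IR day 1 plates ranged from 18.2 to 758 CPM with a median of 50.0, and those of IR day 3 from 0 to 73.2 CPM with a median of 34.8. Replicate 7 of IR day 1 held 136 of the 227 UMIs, 124 of them in 1 cell, and without this plate the fall was 1.28 and missed the threshold (adjusted p = 0.116). It was also missed with at least 2000 UMIs per well (-1.38, adjusted p = 0.101) and without replicate 4 or 7 of IR day 3 (adjusted p = 0.0696 and 0.0548). The fibroblast markers summed to 10.4 to 568.1 CPM on these plates at IR day 1 and 268 to 1257 CPM at IR day 3. Endothelial-like cells of MI held 74.9 to 353 CPM of Timp1, against 0, 15.8, 15.9 and 448 CPM at day 1 sham and 0 UMIs at day 14 sham. Their Timp1 passed against both sham groups (edgeR, adjusted p = 0.00528) but not against day 1 sham alone (log2 difference 0.44, adjusted p = 0.675). Fibroblast markers in these cells summed to 364 to 744 CPM at day 1 sham and 818 to 3792 CPM in MI. Timp1 UMIs per 1000 of those marker UMIs were 95.8 in endothelial-like and 128 in fibroblast-like cells of MI, and the part of fibroblast RNA was not tested.

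Timp2, which both inhibits metalloproteinases and takes part in activating pro-MMP2, was high at IR day 3. Over all cells the 6 plates held 416, 490, 571, 600, 816 and 1302 CPM. Day 1 sham held 120, 144, 208 and 327 CPM, and the day 14 sham plates ranged from 0 to 482 CPM with a median of 106. The difference of IR day 3 from both sham groups was 1.74 ± 0.39 on the log2 scale (edgeR, adjusted p = 0.000839), although the plates overlapped. MI plates held 281 to 388 CPM, all below the lowest plate of IR day 3, but the difference missed the threshold (adjusted p = 0.0945).

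Timp2 was low at IR day 1 in the classes that carried it. In macrophage-like cells, day 1 sham plates held 396, 571 and 1205 CPM and IR day 1 plates 44.6 to 229 CPM with a median of 113. The groups did not overlap and the IR day 1 level was lower (edgeR, log2 difference -2.40 ± 0.34, adjusted p = 0.000113). The class held different clusters in these groups, and within the cluster that held 9 of 21 cells at day 1 sham and 53 of 115 at IR day 1 the pooled levels were 277 and 228 CPM. At IR day 3 the 6 plates lay close together, from 747 to 858 CPM, and the rise from IR day 1 was 2.60 ± 0.27 (adjusted p = 7.76e-08). The pooled level at IR day 14 was 1170 CPM, from 6 cells. Timp2 UMIs per 1000 macrophage-marker UMIs in this class were 65.2 at day 1 sham, 20.3 at IR day 1, 83.4 at IR day 3 and 50.2 in MI. MI plates held 352 to 484 CPM, all below IR day 3, with a log2 difference of -0.92 ± 0.28 (adjusted p = 0.0369) that missed the threshold when any of 9 plates was left out (adjusted p up to 0.11) and with no gene filter (-0.71, adjusted p = 0.133). In fibroblast-like cells the IR day 1 plates held 44.5, 192, 218, 329 and 383.9 CPM, all below the 1077, 1205 and 2145 CPM of day 1 sham. That log2 difference was -2.45 ± 0.46 (edgeR, adjusted p = 0.000665). MI plates, at 256 to 353 CPM, were lower than both sham groups (log2 difference -2.19 ± 0.43, adjusted p = 0.00111) and lower than the 484 to 1974 CPM of IR day 3 (-1.66 ± 0.41, adjusted p = 0.00864). Without replicate 3 of IR day 3 the last difference was -1.19 and missed the threshold (adjusted p = 0.0657). IR day 3 fibroblast-like cells did not pass against sham (adjusted p = 0.593).

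The macrophage-like class was also made up of different clusters. One led by Cd209f and Lyve1 held 9 of 21 cells at day 1 sham, 3 of 115 at IR day 1, 13 of 195 at IR day 3 and 2 of 282 in MI, with 1299, 811, 1379 and 1847 CPM of Timp2. One led by Cxcl3, F10 and Saa3 held 54 cells at IR day 1 and 62 in MI, with 26.5 and 70.7 CPM of Timp2. One led by Ccl17 and H2-Ab1 held 9 cells at day 1 sham, 53 at IR day 1, 43 at IR day 3 and 204 in MI, with 277, 228, 1026 and 468 CPM of Timp2. One led by Gpnmb held 136 cells at IR day 3, with 787 CPM. Within the Ccl17-led cluster, Timp2 at IR day 1 thus stayed within 1.5 times of day 1 sham, while MI and IR day 3 lay higher, as pooled values with no test. The clusters were drawn from the same cells, so this is a description only. Mmp9 in MI was at 280 CPM in the Cxcl3-led and 212 CPM in the Ccl17-led cluster, against 2.54 CPM in the Ccl17-led and 0.529 CPM in the Gpnmb-led cells of IR day 3. The Cd209f-led cells of IR day 3 held 189 CPM of Mmp9 and the Cxcl3-led cells 47.2 CPM, from 7 and 1 of the 10 UMIs of the class in that group. Mmp8 at IR day 1 was at 199 CPM in the Cxcl3-led cluster and 36.8 CPM in the Ccl17-led cluster.

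In cardiomyocyte-like cells Timp2 was higher at IR day 3 than in both sham groups, by 1.63 ± 0.36 (edgeR, adjusted p = 0.000751). The IR day 3 plates held 0, 92.4, 108, 115 and 139 CPM and the sham plates at most 48.7 CPM, and the threshold was missed without replicate 7 of IR day 3 (1.32, adjusted p = 0.0511). Macrophage markers in these cells summed to 185 to 923 CPM at IR day 3, against 26.4 to 200 at day 1 sham and 0 to 79.2 at day 14 sham. Timp2 UMIs per 1000 macrophage-marker UMIs at IR day 3 were 171 in cardiomyocyte-like and 83.4 in macrophage-like cells, and the fibroblast markers of these cells, from the other class that carried much of Timp2, had medians of 237 and 182 CPM at day 1 and day 14 sham and 2221 CPM at IR day 3. The part of macrophage or fibroblast RNA was not tested beyond this.

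Timp3, the inhibitor that binds to the matrix itself, did not pass the test over all cells in any comparison. Its plates ranged from 405 to 678 CPM at day 1 sham, 65.0 to 890 at IR day 1, 95 to 1418 at IR day 3, 256 to 317 at IR day 14, 13.8 to 515 at day 14 sham and 135 to 276 in MI. Each injured group overlapped with day 14 sham. In endothelial-like cells MI plates held 255 to 974 CPM, against 983 to 2308 at day 1 sham and 538 to 1295 at day 14 sham. The log2 difference of MI from both sham groups was -1.01 ± 0.36 (edgeR, adjusted p = 0.0274), and against day 14 sham alone it was -0.62 and missed the threshold (adjusted p = 0.279). It was also missed without replicate 2, 3 or 4 of MI or replicate 5 of day 14 sham (adjusted p from 0.0552 to 0.0953). Endothelial markers in these cells summed to 12622 to 17680 CPM at day 1 sham, 10512 to 14181 at day 14 sham and 4888 to 8784 in MI. Timp3 UMIs per 1000 of those marker UMIs were 79.3, 65.0 and 78.1 in the same groups, so the fall was not seen relative to these markers. In cardiomyocyte-like cells MI rested on 2 plates, 1 with 0 UMIs and 1 with 1 UMI, and the difference of -3.54 ± 1.14 (adjusted p = 0.0107) missed the threshold without replicate 3 of MI (-2.42, adjusted p = 0.18), without replicate 2 (-6.75, adjusted p = 0.0853) or with DESeq2 (-3.28, adjusted p = 0.0862).

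Timp4, an inhibitor known for its expression in the heart, was lower at every early time after injury. Day 1 sham plates held 116, 120, 187 and 261 CPM over all cells, IR day 1 plates 0 to 146 CPM with a median of 31.3, and IR day 3 plates 0, 0, 2.57, 4.37, 10.5 and 45.3 CPM. In MI the 5 plates held 0, 0, 0.241, 0.257 and 5.89 CPM. At IR day 14 they held 19.4, 28.2 and 59.5 CPM and at day 14 sham 0 to 120 CPM with a median of 58.3. Levels at IR day 3 and in MI overlapped, as did IR day 14 and day 14 sham. The log2 difference was -1.87 ± 0.53 at IR day 1 against day 1 sham (edgeR, adjusted p = 0.00502). Against both sham groups it was -4.75 ± 0.83 at IR day 3 (adjusted p = 3.75e-05) and -6.51 ± 0.73 in MI (adjusted p = 2.26e-09). Endothelial markers over all cells summed to 4247 to 7134 CPM at day 1 sham, 1465 to 4919 at IR day 1, 685 to 1541 at IR day 3 and 369 to 1127 in MI.

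Timp4 was also lower within endothelial-like cells. Day 1 sham plates held 307, 458, 585 and 657 CPM and day 14 sham plates 262, 317, 318 and 359 CPM. The IR day 1 plates ranged from 56.7 to 359 CPM with a median of 138, and the MI plates held 0, 0, 2.39, 3.00 and 29.8 CPM, the highest from 20 UMIs. MI plates did not overlap with sham, and their log2 difference from both sham groups was -5.02 ± 0.51 (edgeR, adjusted p = 3.49e-09). Cardiomyocyte markers in these cells summed to 8682 to 13386 CPM at day 1 sham, 9107 to 29820 at day 14 sham and 40.6 to 249.7 in MI, beside the lower endothelial markers of MI given for Timp3, and their part was not tested. At IR day 1 the difference from day 1 sham was -1.42 ± 0.38 (adjusted p = 0.00866) and missed the threshold with plates of at least 10 cells (-1.13, adjusted p = 0.0728). The pooled level at IR day 3 was 61.5 CPM in 35 cells and at IR day 14 164 CPM in 54 cells, neither tested. After thinning to 1000 UMIs a Timp4 UMI was found in 30.8% of endothelial-like cells at day 1 sham, 27.8% at day 14 sham, 19.0% at IR day 1, 14.8% at IR day 14 and 1.72% in MI. Before thinning the shares were 54.2%, 52.8%, 39.2%, 38.9% and 10.3%.

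The endothelial-like class was made up of 2 clusters, whose split differed between groups. One led by Slc26a10 and Cd300lg, with Timp4 among its leading genes, held 77 of 107 cells at day 1 sham, 51 of 72 at day 14 sham, 33 of 79 at IR day 1 and 6 of 58 in MI. Its pooled Timp4 was 635, 341, 360 and 43.8 CPM in these groups, the last from 21 UMIs. The other, led by Plvap and Vwf, held 30, 21, 46 and 52 cells, with 113, 212, 77.9 and 0.892 CPM of Timp4. The former held 136 CPM in 18 cells at IR day 3, and the latter 0 UMIs in 17 cells. Timp4 in MI was thus below both sham groups and IR day 1 in both clusters, as pooled values with no test. Mmp14 in MI was at 616 CPM in the former and 667 CPM in the latter, against 37.4 and 94.1 CPM at day 1 sham.

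**Figure D3:**
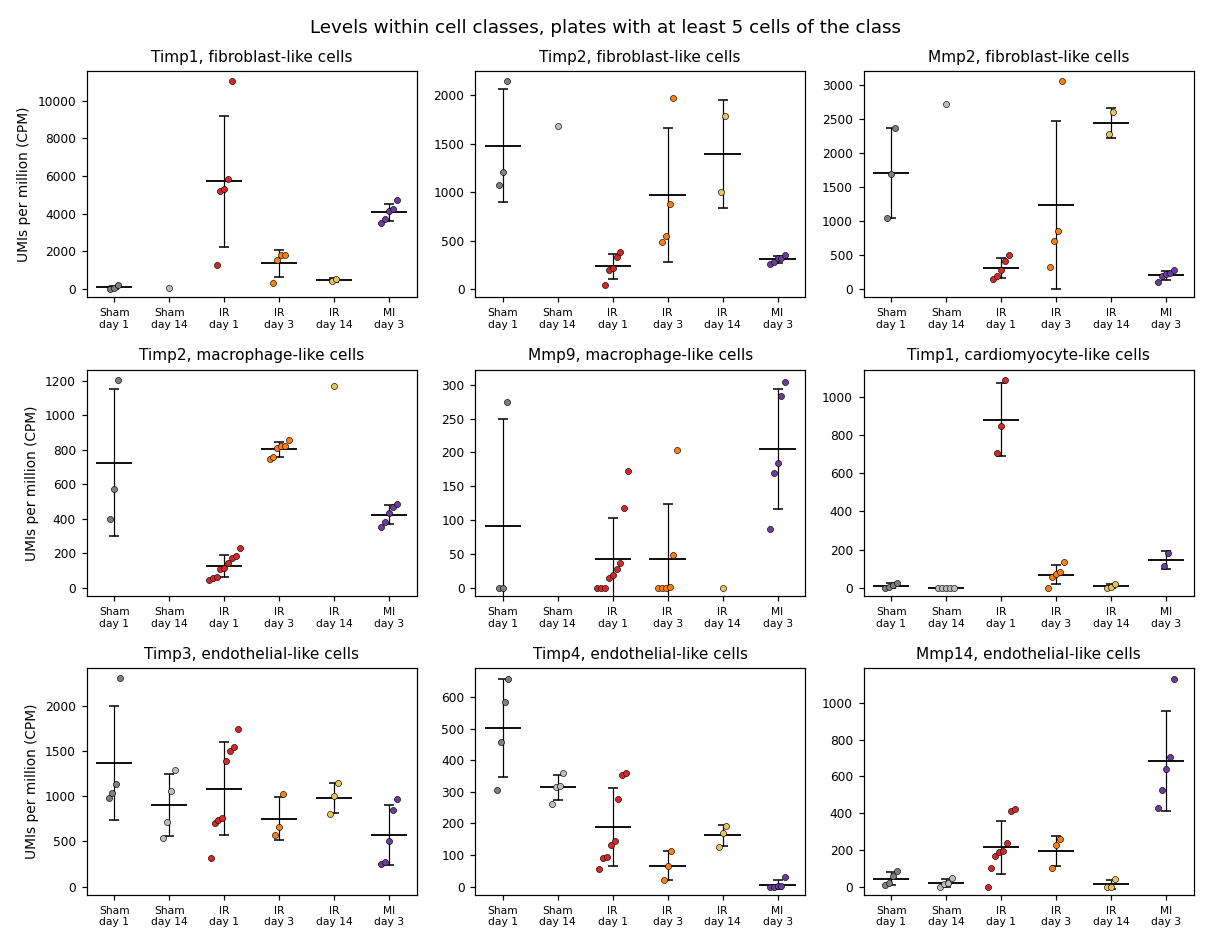
Level (CPM) of selected genes within 1 class of cells, for plates with at least 5 cells of that class. Points are plates, lines are group means and bars the SD, which the axis stops at 0. In fibroblast-like cells Timp1 is high where Timp2 and Mmp2 are low, and in endothelial-like cells Mmp14 is highest and Timp4 lowest in MI.

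Mmp2, the gelatinase made mainly by fibroblasts, did not pass the test over all cells in any comparison, with group means from 99.2 CPM in MI to 377 CPM at IR day 3. The IR day 3 mean includes 1660 CPM on replicate 3, where the median plate was at 109 CPM. Within fibroblast-like cells, in contrast, day 1 sham plates held 1045, 1695 and 2363 CPM and IR day 1 plates 147, 189, 285, 407 and 494 CPM. The groups did not overlap and Mmp2 fell by 2.33 on the log2 scale (SE 0.49, edgeR, adjusted p = 0.00185). Fibroblast markers in the same cells summed to 26543 to 40925 CPM at day 1 sham, 5471 to 20778 at IR day 1 and 29219 to 36015 in MI. Mmp2 UMIs per 1000 of those marker UMIs were 46.0, 22.5 and 6.31, and the part of the lower markers at IR day 1 was not tested. At IR day 3 the plates held 323, 707, 847 and 3053 CPM and did not pass against sham (adjusted p = 0.534). At IR day 14 they held 2280 and 2593 CPM, within the range of the 4 sham plates. MI plates held 106, 189, 216, 230 and 280 CPM, lower than both sham groups (log2 difference -3.24 ± 0.47, adjusted p = 4.19e-05) and lower than IR day 3 (-2.57 ± 0.45, adjusted p = 0.000414). After thinning to 1000 UMIs, Mmp2 was found in 82.6% of fibroblast-like cells at day 1 sham, 31.5% at IR day 1, 53.5% at IR day 3, 88.2% at IR day 14 and 21.2% in MI, and before thinning in 95.7%, 77.8%, 84.5%, 100% and 90.2%.

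The fibroblast-like class was made up of different clusters in different groups, which were drawn without the 9 genes. All 23 fibroblast-like cells of day 1 sham, all 13 of day 14 sham and 15 of 17 at IR day 14 lay in a cluster led by Pi16, Htra3 and Comp. A cluster led by Cxcl5 and Tnc held 44 of 54 cells at IR day 1, 36 of 71 at IR day 3 and 131 of 132 in MI. At IR day 1 the 10 cells of the Pi16-led cluster held 1488 CPM of Mmp2, 1190 of Timp2 and 848 of Timp1, and the 44 cells of the Cxcl5-led cluster 256, 190 and 5065 CPM. At IR day 3 the levels were 1982, 1795 and 622 CPM in 20 cells of the former, and 748, 621 and 1865 CPM in 36 cells of the latter. A further cluster, led by Cyp26b1 and Klrb1f, held the other 15 cells of IR day 3, with 480 CPM of Mmp2, 480 of Timp2 and 150 of Timp1, from 16, 16 and 5 UMIs. When the 9 genes were allowed in the clustering, the class held 56 cells at IR day 3 in place of 71. In day 1 sham the Pi16-led cells held 1642, 1427 and 111 CPM. Mmp2 and Timp2 in the Pi16-led cells thus stayed within 1.5 times of day 1 sham at IR day 1 and day 3, while Timp1 in these cells was above it. These pooled values were not tested, and as the clusters were drawn from the same cells, a steady level within 1 cluster is a description only.

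Endothelial-like cells of MI held 0, 59.6, 67.1, 159 and 425 CPM of Mmp2, against at most 52.7 CPM on the 8 sham plates, a log2 difference of 3.33 ± 0.90 (edgeR, adjusted p = 0.00398). Without replicate 2 or 5 of MI, or with at least 2000 UMIs per well, the gene had too few UMIs to be tested. Its entry into the test thus depended on plates of MI, the group where it was higher, which limits what its p-value shows. Fibroblast markers summed to 818 to 3792 CPM in these MI plates, to 364 to 744 at day 1 sham and to 281 to 773 at day 14 sham. Mmp2 UMIs per 1000 fibroblast-marker UMIs were 38.9 in these cells and 6.31 in fibroblast-like cells of MI.

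Mmp3, which cuts many matrix proteins and activates other proforms, was concentrated on some plates and cells. Over all cells day 1 sham held 0, 0, 66.5 and 67.4 CPM, and IR day 1 held 0, 3.17, 11.2, 53.0, 198, 307, 317, 344 and 483 CPM. The rise was 2.24 ± 0.78 (edgeR, adjusted p = 0.0229), with overlapping plates, and it missed the threshold without replicate 1 (adjusted p = 0.0874) or replicate 2 (adjusted p = 0.0812) of day 1 sham and with DESeq2 (adjusted p = 0.101). MI held 43.4 to 69.9 CPM, above the 0 to 10.6 CPM of all IR day 3 plates, with a difference of 2.67 ± 0.92 (adjusted p = 0.0382) that missed the threshold when any of 9 plates was left out (adjusted p from 0.0531 to 0.0951), with DESeq2 (adjusted p = 0.0585) and with at least 2000 UMIs per well (adjusted p = 0.0609). MI did not pass against both sham groups (adjusted p = 0.0582). At IR day 1, 13 of 54 fibroblast-like cells held all 585 UMIs of that class, up to 130 in 1 cell, and at day 1 sham 6 of 23 cells held 63 UMIs. Within fibroblast-like cells Mmp3 passed in no comparison (adjusted p from 0.18 to 0.834).

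Mmp14 rose at day 1 and day 3. Day 1 sham plates held 17.7, 42.6, 77.3 and 80.9 CPM over all cells, IR day 1 plates 100 to 301 CPM with a median of 142, IR day 3 plates 57.1 to 231 CPM with a median of 132, and MI plates 374, 402, 403, 445 and 551 CPM. IR day 1 lay above all day 1 sham plates, and MI above every plate of sham and IR day 3. At IR day 14 the plates held 14.1, 20.8 and 72.5 CPM, within the range of day 1 sham except the lowest. The log2 differences were 1.43 ± 0.43 for IR day 1 against day 1 sham (edgeR, adjusted p = 0.00815) and 1.60 ± 0.37 for IR day 3 against both sham groups (adjusted p = 0.00123). They were 3.14 ± 0.36 for MI against both sham groups (adjusted p = 4.46e-09) and 1.54 ± 0.39 for MI against IR day 3 (adjusted p = 0.00485). Without replicate 1 of day 1 sham the IR day 1 value was 1.15 (adjusted p = 0.0527), and against day 1 sham alone the IR day 3 value was 1.2 (adjusted p = 0.0566).

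Within classes, Mmp14 passed in endothelial-like cells. Day 1 sham plates held 7.91, 20.8, 59.7 and 87.8 CPM, IR day 1 plates 0 to 423 CPM with a median of 193, and MI plates 426, 524, 641, 704 and 1130 CPM. The rise at IR day 1 was 2.14 ± 0.54 (edgeR, adjusted p = 0.00489), with 1 plate at 0 UMIs, and that of MI over both sham groups was 4.26 ± 0.47 (adjusted p = 1.64e-08), with no overlap. Mmp14 UMIs per 1000 fibroblast-marker UMIs in MI were 290 in endothelial-like, 213 in macrophage-like and 19.7 in fibroblast-like cells. In fibroblast-like cells Mmp14 missed the threshold in all 4 comparisons (adjusted p from 0.064 to 0.529), and in macrophage-like cells in all 3 (adjusted p from 0.101 to 0.163).

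Mmp8 was found in macrophage-like and neutrophil-like cells and was near the floor in sham. Day 1 sham held 0, 0, 2.21 and 18.9 CPM over all cells, the last from 8 UMIs in 1 macrophage-like cell, and day 14 sham held 0 UMIs on 5 of 7 plates. The other 2 held 13.8 CPM from 1 UMI and, on the plate deposited 2 times, 19.8 CPM as the mean of both copies, while with replicate 7 alone the group held 1 UMI in all. IR day 1 plates held 26.5 to 168 CPM with a median of 50.4, all above day 1 sham, and the rise was 3.46 ± 0.73 (edgeR, adjusted p = 0.00031). At IR day 3 the plates held 0, 0, 7.06, 47.8, 57.1 and 63.4 CPM, with a difference from sham of 3.47 ± 0.69 (adjusted p = 0.000202). MI plates held 25.6 to 48.6 CPM, all above sham, with a difference of 3.05 ± 0.66 (adjusted p = 0.00019). IR day 3 and MI did not differ past the threshold (adjusted p = 0.603). Pooled levels in macrophage-like cells were 109 CPM at IR day 1, 82.4 at IR day 3 and 70.6 in MI, and the gene passed in none of the 3 comparisons of that class (adjusted p from 0.539 to 0.785). In neutrophil-like cells the pooled level was 285 CPM at IR day 1 and 133 in MI, from 74 and 19 UMIs, below the gene filter. Mmp8 UMIs per 1000 neutrophil-marker UMIs at IR day 1 were 131 in macrophage-like and 6.54 in neutrophil-like cells.

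Most Mmp9 UMIs lay in neutrophil-like cells at IR day 1 and in macrophage-like cells in MI, where 282 macrophage-like and 49 neutrophil-like cells were found. The mean level over plates of MI was still higher in neutrophil-like cells, at 2620 CPM against 206 CPM in macrophage-like cells. Over all cells day 1 sham held 0, 0, 0 and 45.0 CPM, with 18 of its 19 UMIs in 1 macrophage-like cell, while day 14 sham and IR day 14 held 0 UMIs, where 3 UMIs over the group would be 2.31 and 1.36 CPM. IR day 1 plates held 54.1 to 620 CPM with a median of 231, all above sham, and the rise was 4.27 ± 0.83 (edgeR, adjusted p = 0.000168). IR day 3 plates held 0, 0, 0.365, 4.28, 14.1 and 63.0 CPM, 14 UMIs in all. MI plates held 60.3, 98.8, 113, 141 and 188 CPM, and their pooled level of 123 CPM was at least 53.3-fold higher than at day 14 sham. MI passed against both sham groups (adjusted p = 7.64e-06) and was higher than IR day 3 by 4.44 ± 0.93 (adjusted p = 0.00084), with 1 plate of IR day 3 inside the MI range.

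In neutrophil-like cells Mmp9 was found in 80 of 106 cells at IR day 1 and 43 of 49 in MI, at pooled levels of 2504 and 2421 CPM. Its 9 plates of IR day 1 ranged from 1229 to 5894 CPM and its 5 plates of MI from 1613 to 3471 CPM. Their log2 difference was -0.02 ± 0.31 (edgeR, adjusted p = 0.963), which does not show that they were alike. After thinning to 1000 UMIs the shares of cells were 67.0% and 71.4%, against 75.5% and 87.8% before, and in cardiomyocyte-like cells of all groups the share was 0.177% thinned and 0.797% before, at median depths of 2092.5 UMIs in neutrophil-like and 2295 in cardiomyocyte-like cells. In macrophage-like cells the MI plates held 86.9, 170, 185, 283 and 304 CPM, and the IR day 3 plates 0, 0, 0.68, 1.48, 48.8 and 204 CPM, the highest from 6 UMIs. The difference was 5.15 ± 0.95 (adjusted p = 0.000552), and with DESeq2 it was 2.41 and missed the threshold (adjusted p = 0.337). IR day 1 plates held 0 to 172.2 CPM, and the fall to IR day 3 of 2.95 on the log2 scale (SE 1.12, adjusted p = 0.0486) missed the threshold without replicate 2 or 3 of IR day 1 (-2.75 and -2.10) or replicate 4, 6 or 7 of IR day 3 (-1.70, -2.90 and -2.46) and with at least 10 cells per plate (-2.75, adjusted p = 0.0936), and was -0.21 with DESeq2. Neutrophil markers in macrophage-like cells summed to 104 to 2176 CPM at IR day 1, 34.0 to 122 at IR day 3 and 332 to 781 in MI. Mmp9 UMIs per 1000 neutrophil-marker UMIs were 57.5 in both classes at IR day 1, and in MI 345 in macrophage-like against 109 in neutrophil-like cells.

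The counts of genes called are set against the share of all tested genes that passed. Over all cells, 6 of the 9 passed at IR day 1 against day 1 sham, where 36.5% of all tested genes did. At IR day 3 against both sham groups 5 passed (background 29.6%), in MI against both sham groups 5 (56%) and in MI against IR day 3 4 (17.4%). At IR day 14 against day 14 sham edgeR called 0 of the 9, 0 also at an unadjusted p under 0.05, and 0.0215% of all genes passed, or 2 genes, with 687 at an unadjusted p under 0.05. The test of whether the IR effect differed between day 14 and day 1 passed for 0 of the 9 with edgeR and for 2 with DESeq2 (background 18.4%), and 1 was at an unadjusted p under 0.05. IR day 3 and MI were compared with the same sham plates.

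Plates did not overlap for 4 of the 9 genes at IR day 1 against day 1 sham, all 4 higher, where the background was 21.7% of all tested genes. In MI against both sham groups it was also 4, all higher, with a background of 24.1%, and in MI against IR day 3 it was 3 higher and 1 lower (15.1%). It was 0 at IR day 3 against both sham groups (3.9%) and 0 at IR day 14 against day 14 sham (1.27%).

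Within classes fewer of the genes had enough UMIs to be tested. In fibroblast-like cells 6 were tested, of which 3 passed at IR day 1 against day 1 sham (background 19.4%), 1 at IR day 3 against sham (1.52%), 3 in MI against sham (18.1%) and 2 in MI against IR day 3 (10.6%). In endothelial-like cells 2 of 6 passed at IR day 1 (18.4%) and 5 of 6 in MI (37.7%). Of these 5, Mmp2 entered the test only through plates of MI, as given above. In macrophage-like cells 1 of 6 passed at IR day 1 against day 1 sham (2.5%), 3 at IR day 3 against IR day 1 (26.4%) and 2 in MI against IR day 3 (8.55%). In cardiomyocyte-like cells 3 were tested, of which 1 passed at IR day 1 (12.7%), 2 at IR day 3 (6.09%), 0 at IR day 14 (0.188%) and 2 in MI (36%). In neutrophil-like cells Mmp9 alone was tested and did not pass (16.4%).

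**Figure D4:**
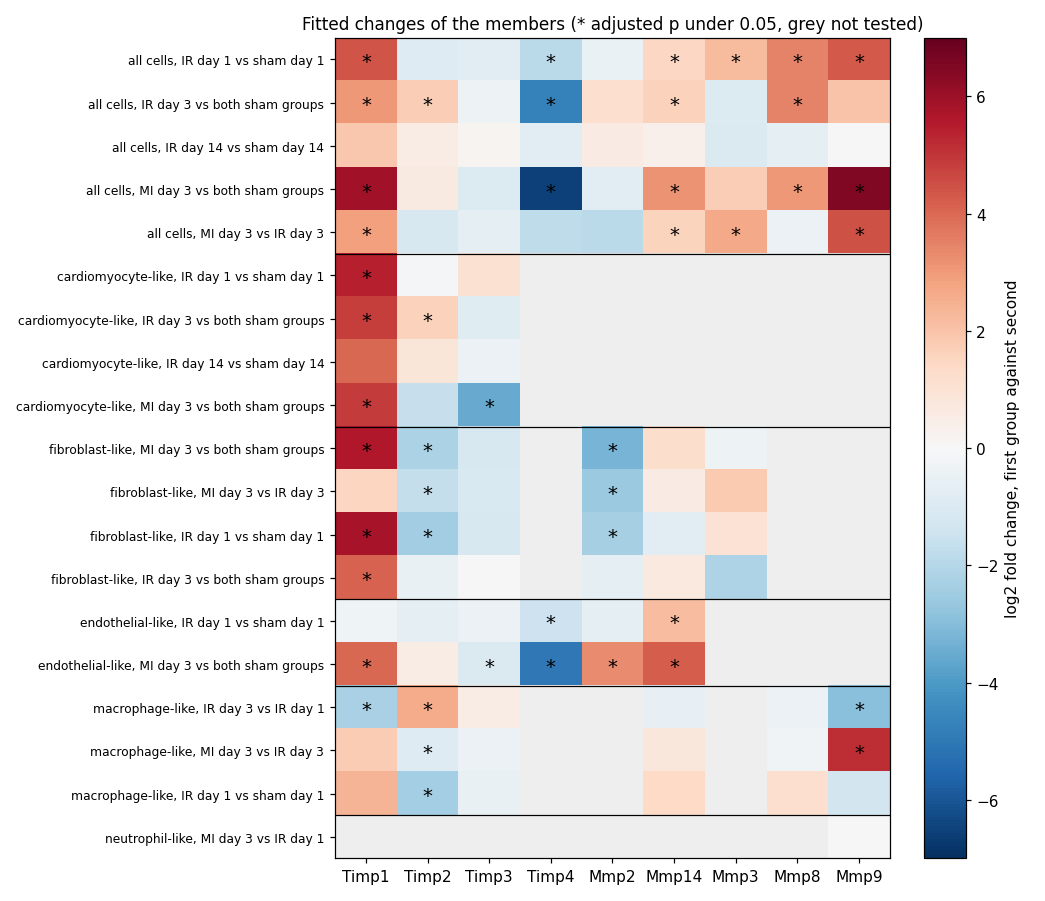
Log2 differences of the 9 genes (columns) in each comparison (rows), over all cells and within classes, with a star where the adjusted p was under 0.05 and grey where the gene was not tested. Timp1 is higher in most injury comparisons and Timp4 lower over all cells and in endothelial-like cells, and differences against a group at 0 are fitted values with no bound.

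Of 49 other genes of extracellular proteolysis listed for comparison, 48 were in the tables and 27 had enough UMIs over all cells. Of these 27, 11 were higher and 2 lower at IR day 1 against day 1 sham, where 36.5% of all tested genes passed. The counts were 12 and 2 at IR day 3 against both sham groups (background 29.6%), in MI against both sham groups 17 and 2 (56%), and in MI against IR day 3 6 and 1 (17.4%). The median log2 difference of the 27 genes was 0.74, 0.69, 1.04 and 0.45 in these comparisons, against 0.10, 0.11, 0.21 and 0.03 over all tested genes. None passed at IR day 14. The metalloelastase gene Mmp12, known from macrophages, was at 0 UMIs at day 1 sham and at pooled levels of 34.2 CPM at IR day 1, 105 at IR day 3 and 95 in MI. Plaur, the urokinase receptor, was at 10.4 CPM at day 1 sham, 216 at IR day 1, 18.6 at IR day 3 and 79.1 in MI. Mmp15, another membrane-anchored enzyme, was lower in the 4 comparisons of early injury, with pooled levels of 59.0 CPM at day 1 sham, 10.6 at IR day 1, 16.8 at IR day 3 and 8.07 in MI. Bsg, an inducer of metalloproteinases, was lower at IR day 1 and in MI against sham. Cardiomyocyte markers summed to 25208 to 41862 CPM at day 1 sham, 909 to 6029 at IR day 1 and 255 to 1910 in MI, and their part in the falls was not tested.

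In fibroblast-like cells 6 of the 25 tested proteolysis genes were higher and 4 lower at IR day 1 (background 19.4%), and 4 and 4 in MI against sham (18.1%). In endothelial-like cells 7 of 17 were higher and 1 lower at IR day 1 (18.4%), and 9 and 1 in MI (37.7%). In macrophage-like cells 0 of 17 rose and 6 fell from IR day 1 to IR day 3 (26.4%), among them Lcn2, Thbs1 and Plaur.

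The genes with the most similar pattern were named by Pearson's r of log2(CPM + 10) over 30 combinations of class and group with at least 10 cells, among genes with at least 200 UMIs. For Timp1 these were Tnfaip6 (r = 0.83), Tnc (0.82) and Wdr92 (0.82), and for Mmp2 Lum (0.97), Naalad2 (0.95) and Col6a1 (0.95). For Timp4 they were Slc26a10 (0.96), Cyp4b1 (0.95) and Cd300lg (0.93), and for Timp3 Ltbp4 (0.94), Ly6a (0.93) and Slc43a3 (0.92). For Mmp9 they were Trem1 (0.97), Nfkbid (0.93) and Il1r2 (0.93), and for Mmp8 Apobr (0.95), Clec4d (0.95) and Bst1 (0.94). Timp2 was most like Scpep1 (0.94), Rnase4 (0.93) and Igf1 (0.92), Mmp3 most like Aldh1a2 (0.86), Gfpt2 (0.84) and Ccl19 (0.82), and Mmp14 most like Emp1 (0.90), Emilin1 (0.89) and Scd2 (0.89). The combinations share plates and differ in depth, so these values are descriptions.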

How the data were processed

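Single cells of the left ventricle were sorted into 384-well plates and sequenced with SORT-seq. Per the labels and the study's methods, reads were aligned by the authors with BWA-ALN (version not given in the sources used here) to the mouse build GRCm38/mm10, and 36 tables, 1 per plate, of UMI counts were deposited. The counts are whole numbers, and molecules sharing 1 of the 4096 tags of 6 bases are counted once. Here mitochondrial genes and spike-ins were left out, a minimum of 1000 UMIs was set for a well to count as a cell, and no doublets were called. Cells were clustered with scanpy 1.11.5 and leidenalg 0.10.2 without the 9 genes and named from marker lists. A plate is the replicate, and groups come from the labels. Nuclear UMIs per plate ranged from 28642 to 4261077.

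UMIs were summed per plate, over all cells or per class (plates with at least 5 cells), and fitted for all groups and genes with edgeR 4.0.16 in R 4.3.3 (filterByExpr, TMM scaling, quasi-likelihood F test), with Benjamini-Hochberg adjustment over all genes and a threshold of 0.05. CPM values are before TMM scaling, with the SD over plates, and log2 differences carry their SE. A bound against a group at 0 UMIs uses 3 counts over the group, and such floors cover counting error only. All 9 genes were named, other proteolysis genes by the largest changes among those called (1 such gene is counted but not reported here by name), and like genes by the 3 highest r. The members and lists were chosen with earlier results of these data known. Fibroblast-like comparisons of IR day 1 and IR day 3 with sham, and the macrophage-like comparison of IR day 1 with sham, were added after the cells were counted. Scripts were tested on simulated data. Alternatives were other scaling, no gene filter, DESeq2 1.42.0, at least 2000 UMIs per well, no copied wells, no Rn45s, a replicate block, each sham group alone, at least 10 cells per plate and each plate left out.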

Additional observations from a re-analysis of the deposited data

Results flagged for a closer look

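Over all cells, the level of each gene in the plates of each group of 4 to 10 plates was tested for 1 plate far from the others with Dixon's criterion, and 14 of 44 such tests passed. Chance gives about 1 in 20 for normally distributed values, a rate that does not hold for levels with most plates at or near 0 UMIs, so the count is a description. Each value is the level in CPM on the plate that stood apart, and no explanation was tested.

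Replicate 3 of IR day 3 stood apart 3 times, with 1660 CPM of Mmp2 where the median plate of its group held 109, with 1418 CPM of Timp3 where the median was 138, and with 63.0 CPM of Mmp9 from 6 UMIs where the median was 2.32. Replicate 8 of day 14 sham, the only plate of its group with at least 5 fibroblast-like cells, stood apart with 515 CPM of Mmp2, 18.1 CPM of Mmp3 and 482 CPM of Timp2. Replicate 2 of day 1 sham held 18.9 CPM of Mmp8 and 45.0 CPM of Mmp9, from 8 and 19 UMIs. Replicate 2 of day 14 sham, the plate deposited 2 times, held 79.4 CPM of Timp1 from 8 UMIs.

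At IR day 1, replicate 6 stood apart with 309 CPM of Mmp2 (median 94.6), replicate 2 with 620 CPM of Mmp9 (median 231) and replicate 9 with 890 CPM of Timp3 (median 299). Replicate 1 of IR day 3 held 45.3 CPM of Timp4 from 2 UMIs, and replicate 4 of MI held 5.89 CPM of Timp4 from 20 UMIs.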

How the results depend on the processing

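Of 61 log2 differences followed, 47 passed the threshold, and 29 of these did so under every alternative in which they were tested and 18 missed it under at least 1. None of the 47 changed direction. The number of genes past the threshold moved by over 1.5 times as follows, and the cause was not tested. With DESeq2 it was 2 in place of 0 for the difference of the IR effect between day 14 and day 1, 1 in place of 2 for cardiomyocyte-like cells in MI, and 1 in place of 2 for macrophage-like cells in MI against IR day 3. Against day 1 sham alone it was 3 in place of 5 over all cells at IR day 3 and 2 in place of 1 in fibroblast-like cells at IR day 3. With no gene filter it was 4 in place of 2 for macrophage-like and 5 in place of 2 for fibroblast-like cells in MI against IR day 3, and 1 in place of 0 for neutrophil-like cells. With at least 10 cells per plate it was 5 in place of 2 for fibroblast-like cells in MI against IR day 3. The Mmp9 log2 fold change, neutrophil-like cells, MI day 3 vs IR day 1, changed sign, from -0.02 to 0.0586 with RLE scaling and to 0.0598 with DESeq2, and ranged from -0.12 to 0.27 when single plates were left out.

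When each plate was left out in turn, the number ranged from 4 to 6 over all cells at IR day 1, from 5 to 6 at IR day 3, from 5 to 7 in MI against sham, from 3 to 4 in MI against IR day 3 and from 0 to 1 for the difference of the IR effect, which was 1 without replicate 4 of day 1 sham or replicate 8 of day 14 sham. In cardiomyocyte-like cells it ranged from 1 to 2 at IR day 3 (1 without replicate 7) and from 1 to 2 in MI (1 without replicate 2 or 3). In macrophage-like cells it ranged from 1 to 3 at IR day 3 against IR day 1 (1 without replicate 4 or 7 of IR day 3) and from 1 to 2 in MI against IR day 3. In endothelial-like cells it ranged from 2 to 3 at IR day 1 and from 3 to 5 in MI (3 without replicate 2, where Timp3 missed the threshold and Mmp2 had too few UMIs to be tested). In fibroblast-like cells it ranged from 1 to 2 in MI against IR day 3 (1 without replicate 3 of IR day 3). Copied wells left out ended 1 call, that of Mmp9 in macrophage-like cells at IR day 3 against IR day 1 (adjusted p = 0.0543).

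The replicate numbers of the labels did not pair the plates: the deviations of same-numbered plates correlated with a median r of 0.00143 over 61 pairs (-0.163 to 0.389), against -0.0029 over 409 other pairs. With a replicate block, the number past the threshold was 0 in place of 2 in cardiomyocyte-like cells at IR day 3, 0 in place of 1 in fibroblast-like cells at IR day 3 and 1 in place of 2 in fibroblast-like cells in MI against IR day 3. The 8 calls lost were Mmp3 over all cells at IR day 1 (adjusted p = 0.216), Timp1 (0.0588) and Timp2 (0.513) in cardiomyocyte-like cells at IR day 3, Timp1 in fibroblast-like cells at IR day 3 (0.0552), Mmp2 in fibroblast-like cells at IR day 1 (0.0558), Timp2 in MI against IR day 3 in fibroblast-like (0.13) and macrophage-like cells (0.155), and Mmp9 in macrophage-like cells at IR day 3 against IR day 1 (0.378). Groups with 1 plate of a class were assumed to vary like the others.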
